A study of Mus musculus with 2 samples.

Results

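Lin28a, Lin28b, Trim71, Igf2bp1, Igf2bp2, Igf2bp3, Hmga1 and Hmga2 are genes of the oncofetal RNA-binding and chromatin programme, and they were followed here for N6-methyladenosine (m6A) in early retinal organoids of the mouse. They were chosen by gene name, all 8 of the 8 names were found, and they make up 8 of the 8262 named genes listed in either of 2 libraries. Retinal organoids are aggregates of stem cell derived tissue grown in culture. Poly(A) RNA of day 6 organoids was passed through nanopores without being copied, in 2 replicate libraries of the same kind. All organoids were wild type (WT), came from the Rx:GFP line, in which green fluorescent protein reports an early eye-field gene, and had been treated with AGN at 0.1 µM over the 6 days of differentiation. The series concerns m6A placed by the methyltransferase METTL3 in retinal development, and these libraries ask where the mark lies in the transcripts of the tissue. A methyltransferase mutant or an unmodified control RNA was not analysed here, so no fraction has a background level beside it. The labels do not say whether the replicates came from separate cultures, so an SD over them (n = 2) may measure technical spread alone.

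The genes belong to a circuit of fetal and stem cells. LIN28A and LIN28B bind precursors of the let-7 microRNAs and block their maturation. TRIM71, also known as LIN41, is an RNA-binding ubiquitin ligase and a classic let-7 target. IGF2BP1, IGF2BP2 and IGF2BP3 are cytoplasmic RNA-binding proteins that stabilise and localise mRNAs, and they are counted among the proteins that read m6A. HMGA1 and HMGA2 are small chromatin proteins that bind AT-rich DNA, and Hmga2 mRNA is among the best known let-7 targets. The circuit is active in embryonic progenitors and is mostly switched off in adult tissue.

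Each listed position is a 5-base motif, and its value is the deposited fraction modified, whose denominator is not given. The reads printed after a fraction are the coverage of the position, not that denominator. The motifs are shown here because, over all sites, the one ending in A had a median fraction far above those of the other three. In each, the A that m6A chemistry would modify is in capitals, although the deposited tables do not say which base of the motif a position marks.
Motif ending in A: ggAca
Motif ending in C: ggAcc
Motif ending in T after GG: ggAct
Motif ending in T after AG: agAct
The let-7 family is shown as background, because it links most of these genes. No microRNA was measured. All 8 of the 8 let-7 5p forms looked up (a to g and i, RefSeq, GRCm38.p6) carry the same seed, bases 2 to 8, given in capitals for let-7a and let-7g.
let-7a-5p: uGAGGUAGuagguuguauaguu
let-7g-5p: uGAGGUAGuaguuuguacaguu

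All 8 genes were listed in both libraries, and most of their sites had enough reads in replicate 2 only. A site is a listed position with at least 20 reads in its library, and no position under 5 reads was listed. Replicate 1 held 34 positions and 9 sites of the 8 genes, and replicate 2 held 42 positions and 26 sites. In replicate 1 the sites lay in 4 genes (Lin28b, Igf2bp2, Igf2bp3 and Hmga1), where 35.6% of all named genes listed held a site. In replicate 2 all 8 genes held a site, where 48.6% of all named genes listed did. Sites found in both libraries numbered 8 and lay in the same 4 genes. A site in both libraries was held by 22.8% of all named genes listed in either library.

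The highest coverage was 46 reads in replicate 1 and 114 in replicate 2 for Hmga1. It was 32 and 75 for Igf2bp3, 24 and 48 for Lin28b, and 20 and 71 for Igf2bp2. These are the 4 genes with a site in both libraries. Hmga2 reached 19 and 88 reads, Lin28a 15 and 97, Igf2bp1 12 and 47, and Trim71 10 and 32. Hmga2 thus missed the minimum in replicate 1 by 1 read, while Igf2bp2 met it with exactly 20. In replicate 1, 9 positions of the 8 genes had 15 to 19 reads and 2 had 20 to 24. At the 27 positions listed in both libraries, coverage was higher in replicate 2 at all 27, by a median ratio of 2.52 (lowest 1.5, highest 6.47). The median ratio over all positions listed in both was 2.12. Coverage of a position counts reads over it and is not an expression level.

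**Figure D1:**
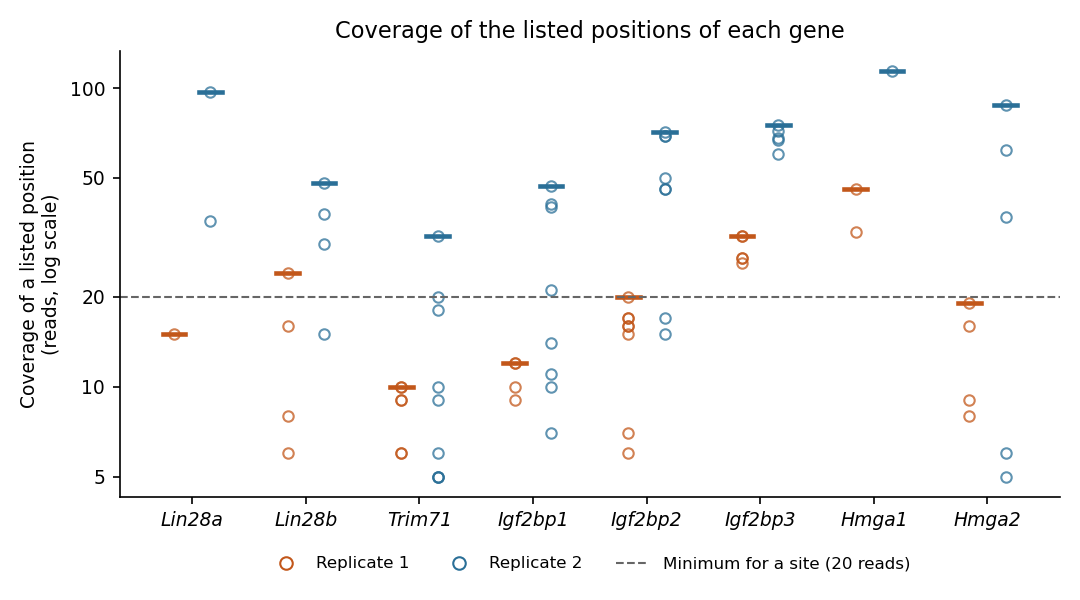
Coverage in reads (log axis) of each listed position of the 8 genes, in replicate 1 and replicate 2, with a short bar at the highest position of each gene and a dashed line at the minimum of 20 reads. In replicate 1 the highest positions lie between 10 reads (Trim71) and 46 reads (Hmga1), and in replicate 2 between 32 (Trim71) and 114 (Hmga1).

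Of the 26 sites of replicate 2, 8 were also sites of replicate 1, which is 30.8% (95% Wilson interval 16.5% to 49.99%, counting error only). Over all sites of replicate 2 this share was 32.2%. Of the 9 sites of replicate 1, 8 were sites of replicate 2, or 88.9% (56.5% to 98.0%), beside 80.8% over all. Both intervals treat the sites as independent. Sites of 1 transcript share reads, and 5 of the 8 shared sites lie on the Igf2bp3 transcript, so the intervals may be too narrow. The remaining 18 sites of replicate 2 were listed with fewer than 20 reads in replicate 1 in 13 cases and not listed there in 5. This split was not counted over all sites. The shares given above with an interval lay close to those of the series.

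Lin28a (chromosome 4, 133730641 to 133746152; transcript ENSMUST00000051674.2) had a fraction close to 0 at its deepest site. Gene coordinates are given as the tables list them. At position 2636, a GGACC, replicate 1 gave a fraction of 0 over 15 reads and replicate 2 gave 0.0106 over 97 reads. At position 1123, a GGACT, replicate 2 gave 0.118 over 36 reads, and the position was not listed in replicate 1. Both sites of Lin28a lay in the lower part of their motif, at percentiles 3.22 and 29.9 among all replicate 2 sites of that motif. A percentile here is the mid-rank share of sites with a lower fraction.

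Lin28b (chromosome 10, 45252716 to 45362491; transcript ENSMUST00000079390.6), the paralogue of Lin28a, held 1 site in both libraries. At position 4194, a GGACA, replicate 1 gave a fraction of 0.118 over 24 reads and replicate 2 gave 0.16 over 38 reads, a mean of 0.139 ± 0.0300 (SD, n = 2). For its motif this is low, at percentile 6.92 of all shared GGACA sites. A second GGACA, at position 3205, stood higher, with 0.615 over 16 reads and 0.682 over 30 reads. The ranges of these 2 positions did not overlap, so the transcript held a low and a higher GGACA in either library. Position 5304, a GGACT, had 0.556 over 48 reads in replicate 2 and was not listed in replicate 1. At position 953, an AGACT, the fraction was 0.143 over 8 reads and 0 over 15 reads, both below the minimum. A further transcript, ENSMUST00000214555.1, was listed only in replicate 1, at position 2669 with 0.667 over 6 reads.

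Trim71 (chromosome 9, 114336201 to 114393437; transcript ENSMUST00000111816.2) was the least covered of the 8 genes, and its 2 sites, both in replicate 2 only, were low. Position 9261, a GGACT, was listed with a fraction of 0 in both libraries, over 10 and 32 reads. Position 8145, also a GGACT, had 0.125 over 9 reads and 0.1 over 20 reads. The shallower positions upstream had other values. The fraction at position 7324 was 1 over 6 reads and 0.714 over 9 reads, and that at position 8062 was 0.571 over 9 reads and 0.308 over 18 reads. At position 7370 it was 0 over 6 reads and 0.333 over 10 reads. Position 7324 was the highest of these 3 in both libraries, while 8062 and 7370 changed places. The libraries differed by 0.264 to 0.333 in size at the 3 positions. Another 4 positions, from 5394 to 5826, were listed in replicate 2 with 5 or 6 reads, and position 8843 in replicate 1 with 10.

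Igf2bp3 (chromosome 6, 49062157 to 49191891; transcript ENSMUST00000031838.8) gave the most complete record, since all 5 of its positions were sites in both libraries. At position 3623, a GGACT, the libraries gave 0.72 over 32 reads and 0.519 over 75 reads, replicate 1 first here and from here on. Position 2355, a GGACC, had 0.381 over 27 reads and 0.424 over 68 reads, and position 3130, a GGACA, had 0.261 over 32 reads and 0.383 over 72 reads. These are the higher positions of the transcript. Position 1861, a GGACC, had 0.118 over 26 reads and 0.143 over 60 reads, and position 2203, also a GGACC, had 0.0417 over 27 reads and 0.0984 over 67 reads. The 5 sites kept the same rank in both libraries.

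In means over the 2 libraries the Igf2bp3 sites stood at 0.620 ± 0.142, 0.403 ± 0.0305, 0.322 ± 0.0863, 0.130 ± 0.0179 and 0.0701 ± 0.0401 (each SD, n = 2). The gap between positions 3623 and 2355 was 0.339 in replicate 1 and 0.095 in replicate 2. Their mean gap of 0.217 exceeded the larger SD of the 2 sites, 0.142, which is the SD of a single site and not of the gap. Position 2355 stood above 3130 by 0.120 in replicate 1 and by 0.0412 in replicate 2. That mean gap of 0.0807 was smaller than the larger site SD, 0.0863, and its sign was the same in both libraries. As the gap was taken within each library, this does not place it within its own spread. The 3 GGACC sites of this transcript lay within 494 bases and ran from percentile 10.2 (position 2203) and 28.6 (position 1861) to 72.7 (position 2355) of all shared GGACC sites.

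Igf2bp2 (chromosome 16, 21877759 to 21982049; transcript ENSMUST00000100052.10) held fractions from 0.0714 to 1 on 1 transcript. At position 433, a GGACA, the fraction was 1 in both libraries, over 16 and 46 reads. At position 468, a GGACT 35 bases further on, it was 0.4 over 46 reads in replicate 2, with no listing in replicate 1. At position 777, also a GGACT, it was 0.0714 over 16 reads and 0.130 over 50 reads. In replicate 2, which listed all 3 of these neighbouring positions, the fraction was lower at each one further from the transcript start. The first step also passes from a GGACA to a GGACT. Among replicate 2 sites of their own motif, the 3 lay at percentiles 96.1, 69.7 and 32.9. Whether position on the transcript plays a part was not tested. At the far end, position 3268 was the only site in both libraries, a GGACT with 0.177 over 20 reads and 0.230 over 69 reads (0.203 ± 0.0375, SD, n = 2). Position 3640, a GGACA, had 0.571 over 15 reads and 0.705 over 69 reads. Position 3793, an AGACT, had 0.25 over 17 reads and 0.18 over 71 reads. The ranges of position 3640 and of its neighbours on either side did not overlap, but the 3 positions have different motifs. Among replicate 2 sites of their own motif, positions 3268, 3640 and 3793 lay at percentiles 49.9, 53.8 and 34.7.

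Igf2bp1 (chromosome 11, 95847989 to 95896766; transcript ENSMUST00000013559.2) had a fraction of at least 0.655 at each of its 4 sites, all in replicate 2 only. There, position 6078, an AGACT, had 0.926 over 40 reads, and position 4945, a GGACC, had 0.933 over 21 reads. The GGACA positions 6386 and 6567 had 0.655 over 41 reads and 0.75 over 47 reads. The median of these 4 sites was 0.838, beside 0.315 for the 6 sites of Igf2bp2 and 0.383 for the 5 sites of Igf2bp3 in the same library. These medians rest on 1 library and on different motifs, and their difference was not tested. In replicate 1, under the minimum, position 6078 had 0.857 over 9 reads, position 6386 had 0.875 over 10 reads and position 6567 had 0.778 over 12 reads. Those fractions, from 0.778 to 0.875, lay in the upper part of the scale too. The AGACT at 6078 and the GGACC at 4945 lay at percentiles 99.3 and 97.6 of their motifs in replicate 2, while the 2 GGACA sites lay at 49.2 and 58.0. Upstream, 4 positions between 1222 and 4512 were listed in replicate 2 with 7 to 14 reads and fractions from 0.0909 to 0.833.

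Hmga1 (chromosome 17, 27775471 to 27782648) held the highest fraction among the sites in both libraries. At position 190 of transcript ENSMUST00000117600.7, a GGACT, it was 0.889 over 46 reads and 0.84 over 114 reads, or 0.864 ± 0.0346 (SD, n = 2). This is percentile 93.8 of all shared GGACT sites. A second transcript, ENSMUST00000118570.1, had a GGACT at position 497 with 0.905 over 33 reads in replicate 1 and no listing in replicate 2. It was the only site found in replicate 1 alone.

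Hmga1 has a close copy, Hmga1b on chromosome 11, which was not among the chosen names, was looked up after the values were seen and was covered more deeply. Position 157 of its transcript ENSMUST00000105046.3, a GGACT like position 190 of Hmga1, had 0.855 over 159 reads and 0.851 over 305 reads (0.853 ± 0.00283, SD, n = 2). Another GGACT of the copy, at position 14, had 0.36 over 43 reads and was listed in replicate 1 only. A GGACA of the copy, at position 1598, had 0.938 over 89 reads and 0.984 over 181 reads. The mean fractions of Hmga1 190 and Hmga1b 157 differed by less than the SD of the Hmga1 site. How reads were divided between the copies is not given in the sources used here, so coverage and fraction of Hmga1 are uncertain.

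Hmga2 (chromosome 10, 120197180 to 120312374; transcript ENSMUST00000072777.13) had 3 sites, all in replicate 2. Position 3006, an AGACT, had 0.853 over 88 reads, at percentile 97.02 of its motif, and was not listed in replicate 1. Position 983, a GGACA, had 0.444 over 16 reads and 0.333 over 62 reads. Position 458, also a GGACA, had 0 over 8 reads and 0.458 over 37 reads, the largest difference between the libraries among all 27 positions of the 8 genes listed in both. Its value in replicate 1 rests on the fewest reads that the gene's first transcript had. Both GGACA sites lay below the middle of their motif in replicate 2, at percentiles 33.4 and 23.5. Position 2410, a GGACT, was listed only in replicate 1, with 0.643 over 19 reads.

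**Figure D2:**
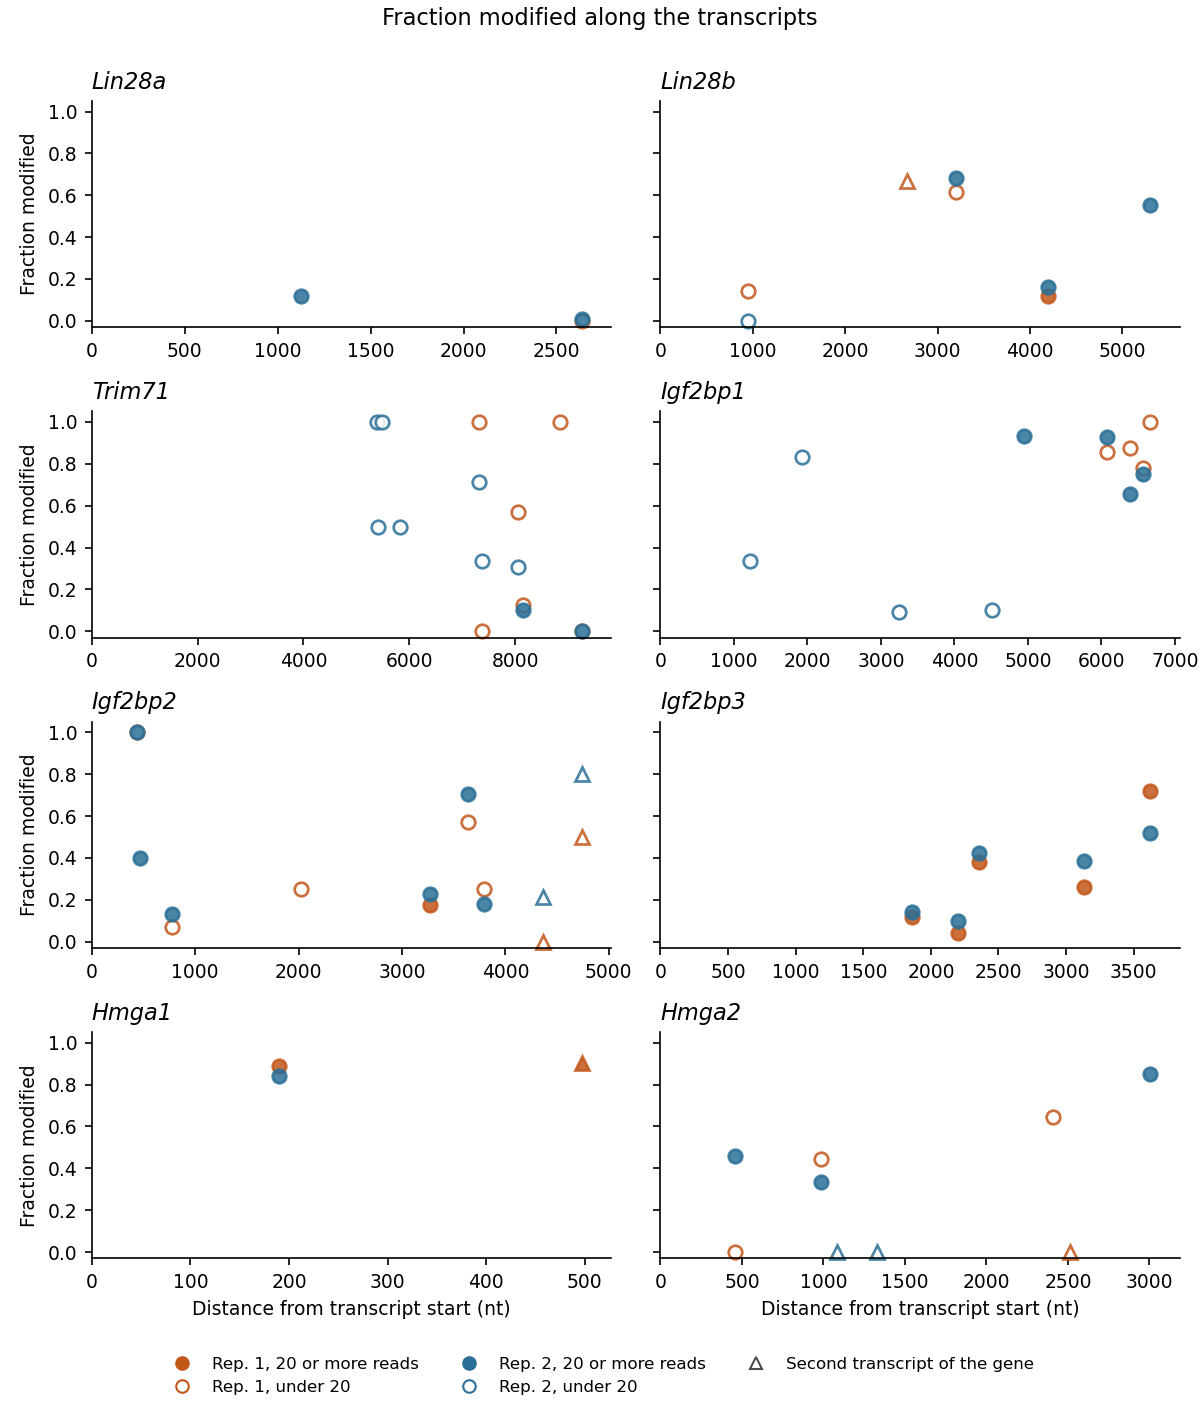
Fraction modified (0 to 1) against distance from the transcript start in nt for every listed position of the 8 genes, by library; filled symbols have 20 or more reads, open symbols fewer, and triangles mark the second listed transcript of a gene. Igf2bp3 has 5 positions filled in both libraries, with 3623 the highest, and the 4 filled positions of Igf2bp1 all lie at 0.655 or above.

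At the 8 shared sites the fraction was higher in replicate 2 at 6 and lower at 2, where it was higher at 45.8% of all shared sites. All 8 had 20 to 49 reads in the shallower library. The median size of their difference was 0.0510, beside 0.0643 over all positions of that coverage, and the root mean square was 0.0922, beside 0.114. The largest, 0.201 in size, was at position 3623 of Igf2bp3, and it was the only one above 0.2, a size exceeded by 8.54% of all shared sites of that coverage and 5.94% of those of any coverage. At the 10 positions whose lower coverage was 10 to 19 reads, the root mean square difference was 0.0959, beside 0.169 over all such positions. At the 9 with 5 to 9 reads it was 0.265, beside 0.248. The differences given above for positions 7324, 7370 and 8062 of Trim71 belong to this shallowest class.

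**Figure D3:**
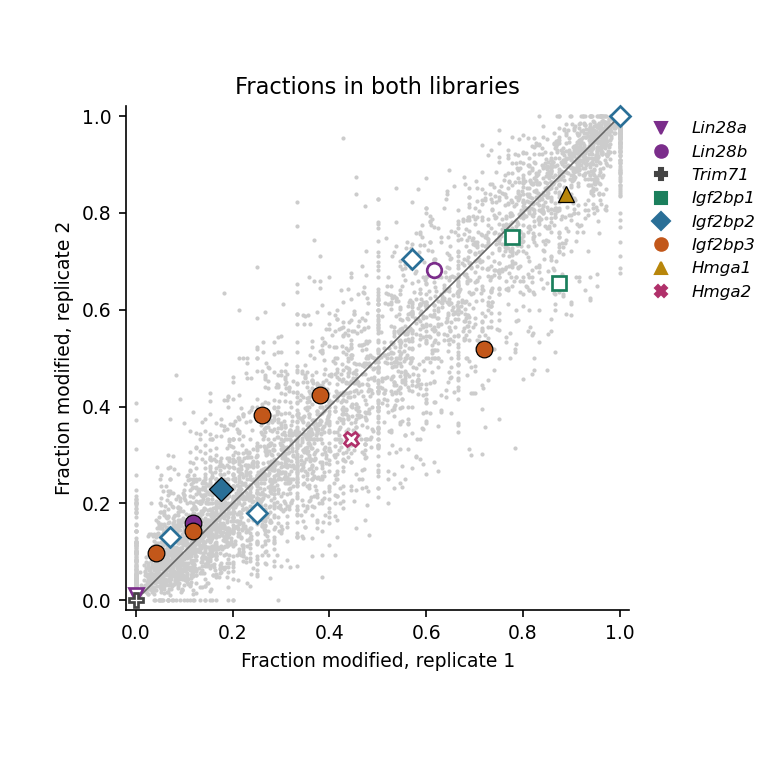
Fraction modified in replicate 2 against replicate 1, with the line of equality; grey points are all 5221 shared sites, filled symbols the 8 shared sites of the genes and open symbols the 10 positions with 10 to 19 reads in the shallower library. The position farthest from the line among the filled symbols is Igf2bp3 3623 (0.72 and 0.519).

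Ranked by mean fraction, the 8 shared sites ran from Hmga1 190 through Igf2bp3 3623, 2355 and 3130 to Igf2bp2 3268, Lin28b 4194, Igf2bp3 1861 and Igf2bp3 2203. The mean gap was larger than the larger SD of the 2 sites for 5 of the 7 neighbouring pairs. The gap had the same sign in both libraries for 6 of the 7. The sites were ordered by the means of these same libraries, so the counts do not test the order. The pairs with a mean gap below the larger site SD were Igf2bp3 2355 and 3130, and Lin28b 4194 and Igf2bp3 1861. The last 2 sites had the same fraction in replicate 1. The median over the 8 sites was 0.219 in replicate 1 and 0.306 in replicate 2 (mean 0.262 ± 0.0619, SD, n = 2). Over all shared sites the median of the mean fractions was 0.368. Because 5 of the 8 sites belong to 1 transcript, the median mostly describes Igf2bp3.

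By motif, 9 of the 26 sites of replicate 2 were GGACA, 9 GGACT, 5 GGACC and 3 AGACT. As shares these were 34.6%, 34.6%, 19.2% and 11.5%, beside 35.6%, 24.2%, 22.1% and 18.1% over all sites. The median fraction at the GGACA sites was 0.655 (range 0.16 to 1), beside 0.667 over all GGACA sites. At GGACT it was 0.230 (0 to 0.84), beside 0.230, and at GGACC 0.143 (0.0106 to 0.933), beside 0.231. The medians at GGACA and GGACT thus lay near those of the series. At AGACT the 3 sites, in Hmga2, Igf2bp1 and Igf2bp2, had 0.853, 0.926 and 0.18, beside a median of 0.263.

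The 8 shared sites held a narrower set of motifs. The 2 shared GGACA sites, Lin28b 4194 and Igf2bp3 3130, were both low, with a median of 0.189 in replicate 1 and 0.272 in replicate 2, where all shared GGACA sites had 0.688 and 0.667. No other GGACA position of the 8 genes reached 20 reads in replicate 1. Among the shared sites the median at GGACT exceeded that at GGACC by 0.602 in replicate 1 and by 0.376 in replicate 2. With 2 libraries an exact two-sided sign permutation test cannot give less than p = 0.5, the value it gave here, so it says nothing about this gap. With a minimum of 10 reads the medians of the mean fractions were 0.643 at GGACA, 0.203 at GGACT and 0.100 at GGACC, so the order of GGACA and GGACT turned and the gap between GGACT and GGACC narrowed.

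Set against sites of their own motif, the 26 sites of replicate 2 lay at percentiles from 3.05 to 99.3, with a median of 49.6. Of them, 12 were above the middle of their motif and 14 below. A fraction of at least 0.9 was seen at 3 sites (Igf2bp2 433, Igf2bp1 4945 and Igf2bp1 6078), beside 10.6% of all sites. A fraction of at most 0.2 was seen at 9 sites, beside 33.3%, and one of at least 0.5 at 11, beside 37.5%. Both sites of Lin28a and both of Trim71 lay at percentile 29.9 or lower, while 3 of the 4 of Igf2bp1 lay above the middle. These are few sites of 1 library, and the difference between the genes was not tested.

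**Figure D4:**
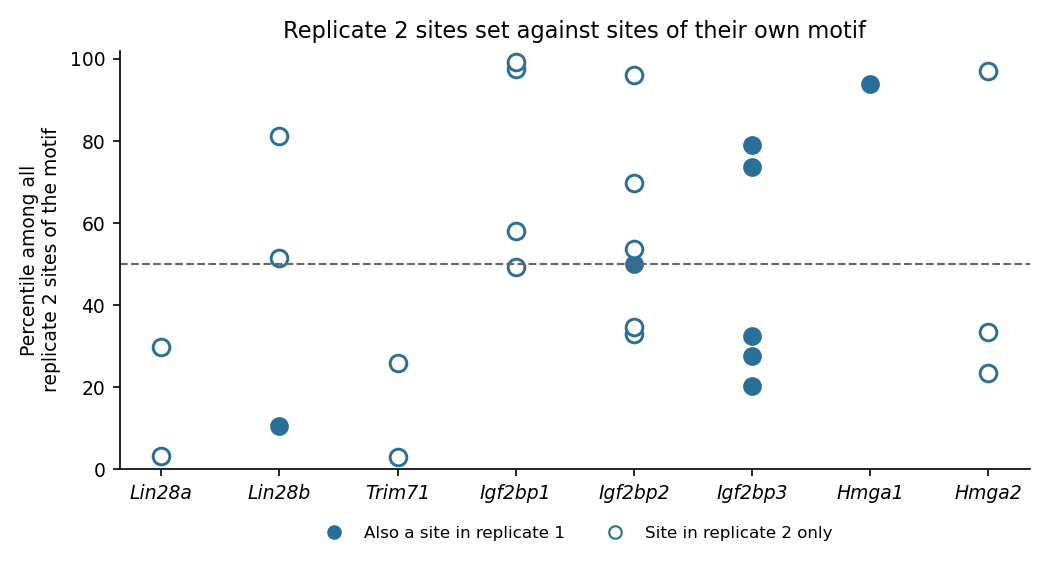
Percentile of each replicate 2 site among all replicate 2 sites of its own motif, by gene; filled symbols are also sites in replicate 1, open symbols are not, and the dashed line marks the middle of the motif. The sites of Lin28a and Trim71 lie at 29.9 or lower, and those of Igf2bp1 run from 49.2 to 99.3.

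Coverage was compared between the ends of the listed stretch. Direct RNA reads begin at the poly(A) tail, as background to the method. Among transcripts with at least 3 listed positions, the last listed position was deeper than the first in 6 of 6 transcripts of the 8 genes in each library, beside 73.6% of all such transcripts in replicate 1 and 73.7% in replicate 2. In replicate 2 coverage of Igf2bp1 went from 7 reads at position 1222 to 47 at position 6567, and that of Trim71 from 5 at position 5394 to 32 at position 9261. Igf2bp3 was more even, with 60 reads at position 1861 and 75 at position 3623. In replicate 1 Igf2bp2 went from 16 reads at position 433 to 17 at position 3793, which is nearly level.

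Some positions were listed in 1 library only. Of the 34 positions of replicate 1, 7 were not listed in replicate 2, beside 29.1% of all its positions. Position 6667 of Igf2bp1 was listed at 1 over 12 reads in replicate 1 and was missing from replicate 2, where position 6567, 100 bases away, had 47 reads. Position 468 of Igf2bp2 was missing from replicate 1, where position 433, 35 bases away, had 16 reads. Position 2024 of Igf2bp2, with 0.25 over 17 reads, was missing where the nearest listed positions, 777 and 3268, had 50 and 69 reads. Position 8843 of Trim71, with 1 over 10 reads, was missing between positions 8145 and 9261 with 20 and 32 reads, and position 2410 of Hmga2 between positions 983 and 3006 with 62 and 88 reads. The neighbours in these last 3 cases lie 418 to 1427 bases away, so coverage at the missing position itself is unknown. In the other direction 15 of 42 positions of replicate 2 were not listed in replicate 1, beside 62.6% over all. An unlisted position is not a measured fraction of 0.

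Some positions of second transcripts matched positions of the first in motif and spacing. In Igf2bp2, positions 4367 (GGACT) and 4739 (GGACA) of ENSMUST00000129913.7 lay 372 bases apart, as did positions 3268 and 3640 of the deeper transcript with the same motifs. Position 4367 had 0 over 7 reads and 0.214 over 15 reads, and position 4739 had 0.5 over 6 reads and 0.8 over 17 reads. The order was thus the same as on the deeper transcript in both libraries. It is also the order of the GGACA and GGACT medians over all sites. In Hmga2, positions 1083 and 2510 of ENSMUST00000159699.1 lay 1427 bases apart, as did positions 983 and 2410 of the first transcript with the same motifs. Position 1083 had 0 over 5 reads, listed in replicate 2 only, and position 2510 had 0 over 9 reads, listed in replicate 1 only. In the same libraries, the matching positions 983 and 2410 were higher, at 0.333 over 62 reads and 0.643 over 19 reads. Whether these pairs are the same bases of the genome was not determined, since no transcript models were used.

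The wider pathway was taken from 3 lists of 39 genes in all, of which 26 had a site in replicate 2 and 14 a site in both libraries. Over all named genes 48.6% of those listed in replicate 2 had a site there, and 22.8% of those listed in either library had a shared site. These shares count listed genes only, while the 39 include genes that were not listed. Of 14 genes that process let-7 and other microRNAs, 4 had a shared site: Ddx5 and Ddx17, RNA helicases of the nuclear processing complex, and Tarbp2 and Prkra, partners of Dicer. Their 13 shared sites had a median fraction of 0.580. Ddx5 had 4 shared sites with a mean of 0.367 ± 0.00560, and Ddx17 had 4 with 0.608 ± 0.0518 (each SD, n = 2). Dicer1 reached 14 reads in replicate 1 and 26 in replicate 2, with 1 site there, and Drosha reached 11 and 31, with 5 sites in replicate 2. The uridylating enzymes Tut4 and Tut7 and the exonuclease Dis3l2, which act on precursors held by LIN28A, were among the 6 of the 14 genes with no site in either library, together with Dgcr8, Ago1 and Khsrp. Of these, Tut7, Dis3l2 and Dgcr8 were not listed in replicate 1.

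Of 8 protein partners of the IGF2BP particles, 5 had shared sites, 15 in all with a median of 0.232. Elavl1, which binds AU-rich RNA, had 4 with a mean of 0.264 ± 0.0202 (SD, n = 2). Ybx1 and Pabpc1, abundant mRNA packaging and poly(A)-binding proteins, had 3 each with means of 0.462 ± 0.00497 and 0.378 ± 0.0118 (each SD, n = 2). Of 17 genes known as let-7 or IGF2BP targets, 5 had shared sites, 15 in all with a median of 0.281. Ccnd2, a cyclin of the G1 phase and a let-7 target, had 5 with a mean of 0.276 ± 0.0527 (SD, n = 2). Igf2, H19 and Cdk6 were not listed at any coverage. Myc was listed only in replicate 2 with at most 9 reads, and Mycn reached 12 and 24. These medians stand beside 0.368 over all shared sites, rest on few transcripts, and were not tested.

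The tissue label was set against marker genes by whether they were listed at all. The 6 eye-field and retinal progenitor genes reported here were all listed in both libraries, though Pax6 reached at most 7 and 17 reads and held no site, and Six3 reached 15 reads in replicate 1. None of 6 pluripotency genes and none of 5 mesoderm and endoderm genes was listed. Of 4 neuronal genes only Tubb3 was listed, with at most 17 reads, and of 4 pigment epithelium genes 3 were, with at most 14. A position enters the tables only with 1 of the 4 motifs and at least 5 reads, so an unlisted gene is not shown to be silent. Over all positions, coverage ran from 5 to 6583 reads in replicate 1 and from 5 to 8985 in replicate 2, with medians of 10 and 12. The positions of the 8 genes had medians of 15 and 36.5 reads.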

How the data were processed

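Direct RNA libraries (RNA002 kit, 1 µg of poly(A) RNA, about 48 h on a flow cell each, per the labels' protocols) gave 1 plus table per replicate. Coverage is a count of reads as deposited. The fraction modified is a deposited fraction by the authors with an unstated denominator: 12 of 34 values of the 8 genes in replicate 1 and 9 of 42 in replicate 2 were whole multiples of 1 over the coverage (tolerance 0.0001), so no read counts, intervals or tests on single fractions were made. Base caller, aligner and modification caller are not given in the sources used here. The submitters' processing notes name mm10, yet 0 of the 8 deposited gene starts lay within 1000 bases of the GRCm38 one, so gene coordinates are of an unnamed other build. Positions are interval ends, counted from 1.

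Sites needed 20 reads and were matched on transcript and exact position with Python 3.11.15 and pandas 2.3.3 (functions tested on simulated data). The 2 libraries form 1 group and share a batch label. All 8 genes and every shared site were named; list genes given with a mean needed at least 3 shared sites, at most 6 genes, with ties broken by coverage after values were seen. Other list genes were named outside this rule after their values were seen. Members and lists were chosen with earlier results of these data known. Alternatives were other coverage minimums, 1 transcript per gene, matching within 5 nt and leaving out a replicate. The minus tables held 0 positions of these genes. A further gene of the marker lists is not reported here and is left out of their counts.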

Additional observations from a re-analysis of the deposited data

How the results depend on the processing

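Counts followed the coverage minimum. Without a minimum the libraries held 34 and 42 positions, 27 shared, with 8 of the 8 genes and 27 pathway genes in both. With 10 reads replicate 1 held 23 sites, and 18 were shared in 8 genes. With 50 reads replicate 1 held 0 sites and replicate 2 held 13, so 0 sites and 0 genes were shared, against 6 pathway genes. The median fraction at shared sites was 0.355 with 10 reads. By motif, the medians were 0.643 at GGACA, 0.203 at GGACT and 0.100 at GGACC with 10 reads, and 0.638, 0.203 and 0.100 without a minimum, against 0.230, 0.620 and 0.130 with 20 reads. The order of GGACA and GGACT thus turned, as more positions entered. With 50 reads no median could be had. The 1 transcript per gene and 5 nt alternatives left the 8 shared sites at 8. Leaving out a replicate gave medians of 0.219 and 0.306, which for 2 libraries says nothing on stability. No paired analysis was possible because the samples form 1 group, so no fit with a replicate block across groups exists; gaps between sites or motifs were taken within each library.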
